A study of Mus musculus with 28 samples.

Results

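Macrophages of the irradiated host were compared between 2 compartments of the brain, the leptomeninges, which are the thin membranes on its surface, and the parenchyma, whose resident macrophages are the microglia. Libraries labelled GFP positive hold host cells, and the labelled compartment split them. This gave 4 leptomeningeal and 8 microglial libraries, 12 of the 28 in the series. The other 16 libraries hold GFP-negative cells, which are taken here as cells from transplanted marrow. Markers of other brain cells in them are given further below. The RNA was counted per gene as unique molecular identifiers (UMIs) of 3′ ends, and every gene with enough counts was tested.

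The mice were Cx3cr1 gfp/+ animals, in which green fluorescent protein stands in for a copy of the fractalkine receptor gene. All of them had been lethally irradiated and had received marrow, and their cells were sorted 16 weeks later. Mutant chimeras had received Vav-Cre: hDNMT3A fl/fl marrow, in which the Cre is driven in blood-forming cells and recombines an allele of human DNMT3A, and gave 2 leptomeningeal and 4 microglial host libraries. Control chimeras had received hDNMT3A fl/fl marrow without Cre and gave the same numbers. Host cells of either kind of chimera do not carry the marrow's alleles, so mutant and control name the marrow that the host had received. Leptomeningeal cells were washed from the surface of the intact, digested brain. Parenchyma was then cut up, digested again and cleared of myelin on Percoll. Handling and compartment thus cannot be told apart. Actinomycin D, which blocks transcription, was present for both, and at most 100000 cells were sorted per library. The labels do not tie libraries to separate animals. The p-values therefore speak only to the spread among libraries, which may be technical.

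Macrophages of the brain's borders and microglia both arise in the embryo from the yolk sac, and both depend on signalling through the receptor Csf1r. Border macrophages lie along vessels and membranes outside the parenchyma, take up material from the cerebrospinal fluid through scavenger receptors and lectins, and a share of them presents antigen on MHC class II. Microglia lie within the parenchyma, survey it with fine processes and keep their identity through TGF-beta signalling and transcription factors such as Sall1. GFP in this reporter marks both populations and can also mark monocytes and natural killer cells.

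The markers of each compartment went with the labels. Levels are given as CPM, which is UMIs scaled per library by TMM and total count. Log2 differences are leptomeningeal minus microglial, ± standard error, with p-values from edgeR's quasi-likelihood test adjusted over all tested genes. Each error is the size of the log2 difference divided by the square root of that test's F value. For genes at or near 0 in a compartment it can be too small, since few UMIs bound the difference. Mrc1, the mannose receptor CD206 of border macrophages, was at 1345 and 1619 CPM (mutant) and 986 and 1345 CPM (control) in leptomeningeal host cells, against 12 to 20.1 CPM with a median of 17.1 CPM in host microglia. Pf4, which encodes platelet factor 4, was at 3491 and 3485 CPM (mutant) and 2691 and 3239 CPM (control), against 15.3 to 30.9 CPM with a median of 20.6 CPM in host microglia. Every leptomeningeal library was above every microglial one for both genes, and the log2 differences were 6.28 ± 0.13 for Mrc1 (adjusted p = 4.47e-37) and 7.22 ± 0.17 for Pf4 (adjusted p = 9.45e-26). Lyve1, a hyaluronan receptor, was at 810.0 and 1026 CPM (mutant) and 529 and 657 CPM (control), against 0.426 to 5.14 CPM with a median of 2.48 CPM in host microglia, a log2 difference of 8.15 ± 0.38, adjusted p = 5.42e-14. Cd163, the receptor for haptoglobin-haemoglobin complexes, was at 595 and 741 CPM (mutant) and 409.9 and 413 CPM (control), against 0 to 3.41 CPM with a median of 1.39 CPM in host microglia (8.38 ± 0.38, adjusted p = 1.9e-14). These 4 genes were thus near the counting floor or low in microglia and abundant in the leptomeningeal libraries. Sall1, a zinc finger factor of microglial identity, ran the other way at 18.5 and 11.4 CPM (mutant) and 48.4 and 30.2 CPM (control), against 264 to 314 CPM with a median of 294 CPM in host microglia (-3.60 ± 0.21, adjusted p = 3.04e-16). The Sall1 values of the groups did not overlap, but it was not absent from leptomeningeal cells, at 9.29% of the mean microglial level. Fewer cells of a type and less RNA per cell cannot be told apart in bulk libraries like these. On GRCm38, by the GENCODE annotation, the 5 genes span chr2:14229392-14332057 (Mrc1), chr5:90772435-90773383 (Pf4), chr7:110850607-110863239 (Lyve1), chr6:124304656-124330527 (Cd163) and chr8:89027235-89044162 (Sall1).

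**Figure D1:**
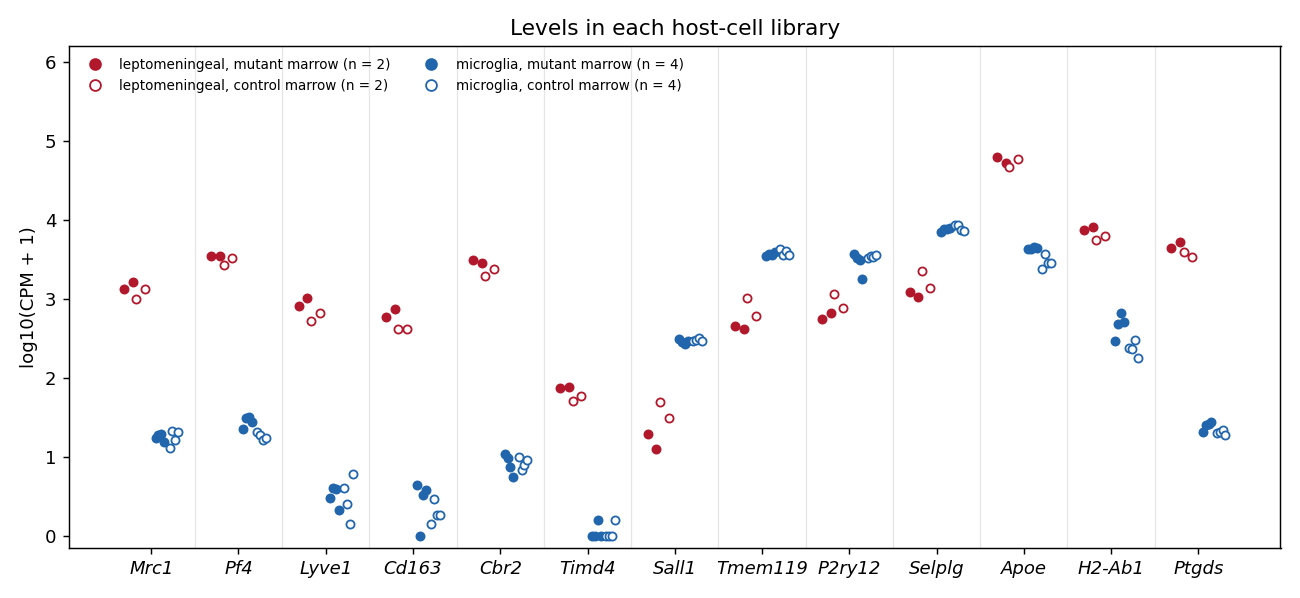
Levels of 13 genes in each host library as log10(CPM + 1), where CPM expresses UMIs relative to a shared library size. Each point is a library, red for leptomeningeal host cells (n = 4) and blue for host microglia (n = 8), filled for mutant and open for control chimeras. The colours do not overlap in any of the 13 genes. Sall1, Tmem119, P2ry12 and Selplg are lower in red, and the other genes higher.

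The promoters below are shown because they belong to genes that mark the compartments and that are described further on: Mrc1, Pf4 and the phosphatidylserine receptor gene Timd4, which were higher in leptomeningeal cells, and P2ry12, the microglial ADP receptor gene, which was lower. Each is the 250 bases before the RefSeq start, on build GRCm38.p6 and 5′ to 3′ along the gene, for Mrc1 chr2:14229164-14229413, plus strand, for Pf4 chr5:90772185-90772434, plus strand, for Timd4 chr11:46810549-46810798, plus strand, and for P2ry12 chr3:59262986-59263235, minus strand. Capitals mark letters that match a searched motif on either strand: GAGGAA, the core of sites for the macrophage factor PU.1, TGCTGA, the core of sites for the factor MAF, or CACGTG, the E-box of MiT/TFE factors.
Mrc1: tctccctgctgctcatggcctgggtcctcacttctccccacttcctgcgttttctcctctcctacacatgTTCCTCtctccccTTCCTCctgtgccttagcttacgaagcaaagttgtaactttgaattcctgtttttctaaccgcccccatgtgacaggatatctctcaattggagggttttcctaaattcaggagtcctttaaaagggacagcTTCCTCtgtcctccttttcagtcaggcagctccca
Pf4: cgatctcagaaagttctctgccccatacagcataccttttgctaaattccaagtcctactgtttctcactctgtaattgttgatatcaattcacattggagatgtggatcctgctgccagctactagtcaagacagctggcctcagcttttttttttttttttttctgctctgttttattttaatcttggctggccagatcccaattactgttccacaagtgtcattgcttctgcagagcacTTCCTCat
Timd4: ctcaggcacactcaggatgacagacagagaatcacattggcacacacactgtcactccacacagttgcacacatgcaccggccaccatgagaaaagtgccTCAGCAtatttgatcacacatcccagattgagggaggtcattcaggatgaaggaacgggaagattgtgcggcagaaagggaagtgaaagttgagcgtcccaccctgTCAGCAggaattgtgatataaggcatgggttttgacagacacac
P2ry12: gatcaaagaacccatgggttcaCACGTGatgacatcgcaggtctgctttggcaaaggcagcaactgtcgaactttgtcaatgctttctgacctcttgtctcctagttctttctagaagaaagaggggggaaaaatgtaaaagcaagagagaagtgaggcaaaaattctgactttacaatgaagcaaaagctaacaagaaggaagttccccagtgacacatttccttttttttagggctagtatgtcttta
Mrc1 held 3 matches to the PU.1 core, all on the minus strand, beginning 180, 167 and 35 bases before the start. Pf4 held 1, beginning 8 bases before the start. Timd4 held 2 matches to the MAF core at 150 and 44 bases, and P2ry12 held 1 E-box at 228 bases. The PU.1 core was in 22.8% of the 9428 promoters of tested genes that RefSeq gave, in 23.7% of those of genes called higher in leptomeningeal cells and in 23.1% of those called lower. It was in 7 of 19 promoters of border macrophage receptors and lectins (36.8%), in 10 of 21 of other border macrophage genes (47.6%) in 5 of 18 of homeostatic microglial genes (27.8%) and in 13 of 34 of interferon-stimulated genes (38.2%). The MAF core was in 12.4% of all of these promoters, in 13.7% of those called higher, and in 11.9% of those called lower. It was in 7 of the 19 receptor and lectin promoters (36.8%), in 4 of 21 of other border macrophage genes (19.0%), in 3 of 18 of homeostatic microglial genes (16.7%) and in 4 of 34 of interferon-stimulated genes (11.8%). The E-box was in 8.41% of all, in 7.99% of those called higher and in 9.45% of those called lower, and in 2 of the 18 promoters of homeostatic genes (11.1%) but in 0 of the other 3 lists. The MEF2 motif (CTA, any 4 bases, TAG) was in 2.57%, 2.95% and 2.19%, and in 0 or 1 promoter of each list. A match describes these letters and is not a binding site.

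Leptomeningeal host libraries held 877905 to 1475135 UMIs (median 1129016), and microglial ones 1521847 to 2903500 (median 2052861). An undetected gene could have been present at up to 2.02 to 3.35 CPM in the leptomeningeal and 0.856 to 1.75 CPM in the microglial libraries, the level of 3 UMIs, which covers counting error only. The compartments were separated by the first principal component of the 12 libraries, with 80.8% of the variance, on which the leptomeningeal libraries lay at 61.1 to 75.7 and the microglial ones at -36.9 to -31.0. Mutant microglia library 4 stood apart on the second (4.89% of the variance), at -36.3, against -1.95 to 11.7 for the other 7 microglial libraries. It had the highest value of the 8 in 3390 genes and the lowest in 2163, against at most 1483 and 2024 genes for any of the others. Without it 6923 genes were called in place of 6995. Its values are named below in some of the genes where they set a range. In others they set it unmarked, such as the lowest microglial values of Slc40a1 (19.9 CPM) and Abca1 (23.9 CPM).

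Of 12327 genes tested, 6995 (56.7%) passed an adjusted p of 0.05 in edgeR's quasi-likelihood test, with 3831 (31.1%) higher and 3164 (25.7%) lower in leptomeningeal host cells than in host microglia. Past a 2-fold difference there were 2400 higher (19.5%) and 1383 lower (11.2%). The 4 leptomeningeal and 8 microglial libraries did not overlap in 2750 genes that were higher (22.3%) and 2279 that were lower (18.5%). Most tested genes thus differed, and the counts in each gene group below are to be read against these shares. The median log2 difference over all tested genes was 0.08 with TMM scaling and -0.10 with library totals alone, where 7226 genes were called, 3171 higher and 4055 lower. Small differences therefore depend on the scaling, also the medians of gene groups that lie near 0. Mitochondrially encoded transcripts took 1.57% to 1.93% of UMIs in leptomeningeal cells and 0.114% to 0.349% in microglia, and cytosolic ribosomal protein genes 9.87% to 11.2% and 3.98% to 4.80%. Of the tested members of these lists, 12 of 15 mitochondrial and 80 of 84 ribosomal genes rose in leptomeningeal cells, with median log2 differences of 2.90 and 1.49, and their part in the results below was not tested.

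**Figure D2:**
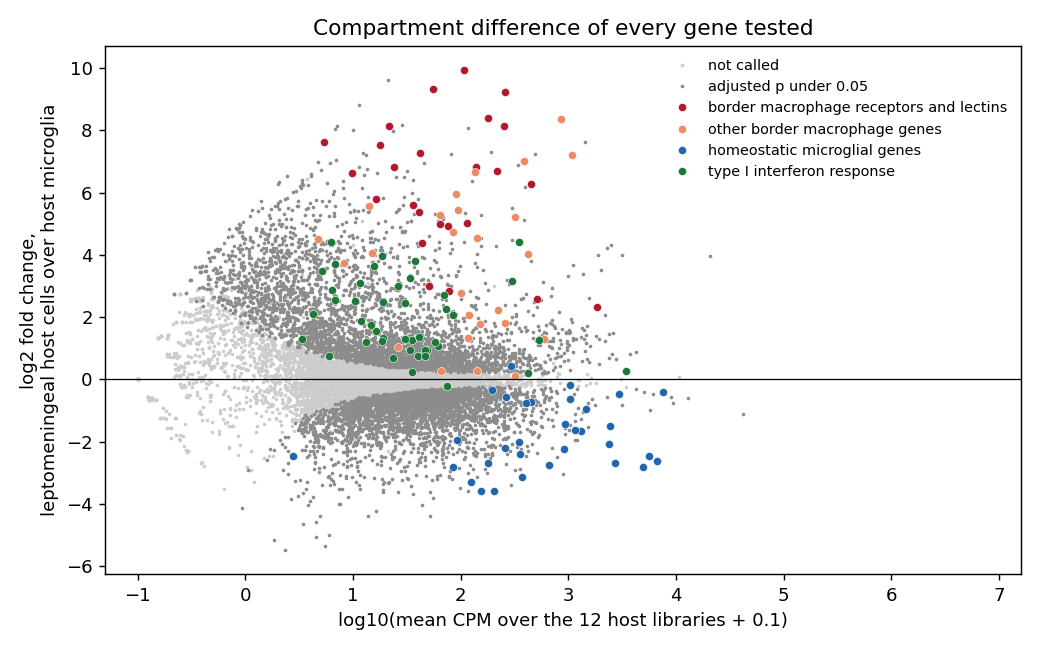
Log2 difference of leptomeningeal host cells over host microglia against log10 of the mean CPM + 0.1 over the 12 host libraries, for 12327 genes. Dark grey points passed an adjusted p of 0.05, light grey did not, and coloured points are the members of 4 gene lists. Receptors and lectins and other border macrophage genes lie above 0, homeostatic microglial genes lie below it apart from 1, and interferon genes lie above 0 apart from 1 that did not pass.

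The comparison was also made within each kind of chimera, 2 libraries against 4. Mutant chimeras alone called 5569 genes (45.2%), 3128 higher (25.4%) and 2441 lower (19.8%), and control chimeras alone 4985 (40.4%), 2822 higher (22.9%) and 2163 lower (17.5%). The 4138 genes called in both were 74.3% of the first and 83% of the second set, and 4135 of them had the same direction. The test of the difference between the chimeras' compartment effects called 0 genes with edgeR (603 had an unadjusted p under 0.05), 0 with voom and 8 with DESeq2. Sall1 had 18.5 and 11.4 CPM in the leptomeningeal libraries of mutant chimeras and 48.4 and 30.2 CPM in those of control chimeras, but the difference between the compartment effects did not pass (-1.42 ± 0.43, adjusted p = 0.742). For Tmem119 it was -0.84 ± 0.36 (adjusted p = 0.941) and for Cdk5r1 -1.87 ± 0.39 (adjusted p = 0.184). Homeostatic microglial genes together took 1.95% and 1.83% of UMIs in the leptomeningeal libraries of mutant and 2.70% and 2.26% in those of control chimeras, against 6.42% to 7.32% in host microglia.

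Receptors and lectins had the highest median of the gene lists. All 25 tested members of the list of border macrophage receptors and lectins rose, against 31.1% of all genes, with a median log2 difference of 6.63, and together they took 0.983% to 1.38% of UMIs in leptomeningeal host cells and 0.112% to 0.133% in microglia. The Cd209 genes encode C-type lectins related to DC-SIGN and lie in a cluster on chromosome 8, Cd209b at chr8:3917655-3926844, Cd209f at chr8:4102787-4105835 and Cd209g at chr8:4134098-4137707 of GRCm38. Cd209f was at 609 and 906 CPM (mutant) and 797 and 804 CPM (control), against 0 to 2.05 CPM with a median of 1.01 CPM in host microglia (9.22 ± 0.34, adjusted p = 4.81e-16). Cd209g was at 307 and 386 CPM (mutant) and 271 and 335 CPM (control), against 0 to 0.682 CPM with a median of 0 CPM (9.94 ± 0.32, adjusted p = 1.31e-20). Cd209b was at 128 to 215 CPM, against 0 to 0.582 CPM (9.32 ± 0.30, adjusted p = 3.16e-29). In 8 of 8 microglial libraries all 3 were at or near 0, and none overlapped the leptomeningeal values. The sizes of their log2 differences are thus less certain than the errors given. These genes are similar in sequence, so how their 3′ reads were divided among them is uncertain.

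Timd4, the phosphatidylserine receptor TIM-4 of long-lived tissue macrophages, was at 74 and 75.4 CPM (mutant) and 49.1 and 57 CPM (control), against 0 to 0.582 CPM with a median of 0 CPM in host microglia. That is 299 UMIs over the 4 leptomeningeal libraries and 3 over the 8 microglial ones, a ratio of 417 with a counting interval of 141 to 2033. Vsig4, a complement receptor, had 78 UMIs in leptomeningeal and 0 in microglial libraries and was at 5.59 to 24.9 CPM in leptomeningeal cells, at least 108.8-fold higher. Both were thus counted in each leptomeningeal library and were at the floor in microglia. Clec10a, a galactose-type lectin, was at 314 to 504 CPM, against 1.29 to 7.57 CPM in microglia (6.82 ± 0.22, adjusted p = 1.91e-20). Clec4n, the lectin Dectin-2, was at 113 to 143 CPM, against 0 to 1.71 CPM (7.28 ± 0.26, adjusted p = 7.14e-26). The scavenger receptor Colec12 had a log2 difference of 7.54 ± 0.37, the folate receptor Folr2 of 6.68 ± 0.23, the class A scavenger receptor Msr1 of 5.81 ± 0.29 and the sialic acid receptor Siglec1 of 5.62 ± 0.32. The smallest difference of the list was that of Stab1, an endocytic hyaluronan receptor, which microglia also had: it was at 3176 to 4591 CPM in leptomeningeal cells, against 661 to 855 CPM in microglia (2.32 ± 0.11, adjusted p = 4.37e-23). Even there the libraries did not overlap.

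Of 26 other border macrophage genes 24 rose and 0 fell, with a median of 4.04. Cbr2, a carbonyl reductase, was at 3070.5 and 2835 CPM (mutant) and 1946 and 2385 CPM (control), against 4.56 to 9.89 CPM with a median of 7.40 CPM in host microglia (8.37 ± 0.19, adjusted p = 1.43e-24). F13a1, the A subunit of coagulation factor XIII, was at 1081 and 1410.0 CPM (mutant) and 983 and 1102 CPM (control), against 6.14 to 15.4 CPM with a median of 8.04 CPM (7.02 ± 0.23, adjusted p = 9.01e-18). In both genes the lowest leptomeningeal library was far above the highest microglial one. The chemokine genes Ccl8 and Ccl24 had log2 differences of 6.65 ± 0.27 and 4.75 ± 0.17, the ferroxidase ceruloplasmin (Cp) of 5.44 ± 0.16, and the growth factor gene Igf1 of 5.28 ± 0.19. Dab2, an endocytic adaptor, was at 795 to 1058 CPM, against 16.2 to 33.2 CPM (5.21 ± 0.13, adjusted p = 6.6e-30). Ms4a7, a tetraspan protein gene, and Tgfbi, a secreted matrix protein gene induced by TGF-beta, had differences of 4.54 ± 0.16 and 4.04 ± 0.10. Gas6, a ligand of the TAM receptors, differed by less, at 884 to 1075 CPM, against 313 to 525 CPM in microglia (1.303 ± 0.12, adjusted p = 1.02e-11), which did not overlap. The 2 genes not called were the iron exporter gene Slc40a1 (66.8 to 88.3 CPM against 19.9 to 80.5 CPM; 0.28 ± 0.20, adjusted p = 0.234) and the prostaglandin dehydrogenase gene Hpgd (319 to 366 CPM against 275 to 374 CPM; 0.12 ± 0.10, adjusted p = 0.293).

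Homeostatic microglial genes were lower in leptomeningeal cells: 29 of 32 fell, against 25.7% of all genes, 1 rose, and the median was -2.03. Tmem119, a microglial surface protein, was at 450.2 and 415 CPM (mutant) and 1023 and 598 CPM (control), against 3528 to 4225 CPM with a median of 3624 CPM in host microglia (-2.67 ± 0.21, adjusted p = 7.51e-11). P2ry12 was at 561 and 654 CPM (mutant) and 1149 and 771 CPM (control), against 1779 to 3699.9 CPM with a median of 3362 CPM (-2.06 ± 0.28, adjusted p = 2.21e-06), where the lowest microglial value is that of mutant library 4 and the other 7 were at 3079 to 3699.9 CPM. No leptomeningeal library reached the microglial range for either gene, and their leptomeningeal means were 16.5% and 24.5% of the microglial ones. The adhesion receptor gene Adgrg1, the matrix protein gene Sparc and the selectin ligand gene Selplg stood at 15.6%, 17.1% and 18.9% of their microglial means, with log2 differences of -2.74 ± 0.16, -2.61 ± 0.27 and -2.44 ± 0.12. Sall1, Upk1b, a uroplakin gene, and Nav3, a neuron navigator gene, were lowest at 9.29%, 8.45% and 10.8%, with differences of -3.60, -3.58 and -3.30.

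Other members of the list differed less or did not pass. Siglech, a sialic acid binding lectin gene, and Trem2, a lipid receptor gene, were at 32.7% and 36% of the microglial mean (-1.64 ± 0.24, adjusted p = 5.67e-06, and -1.48 ± 0.12, adjusted p = 3.38e-14). Fcrls was at 2145 to 2504 CPM in leptomeningeal cells, against 2990.4 to 3793 CPM in microglia (-0.47 ± 0.12, adjusted p = 0.00115). Csf1r was at 5868 to 6959 CPM, against 6473 to 9229 CPM (-0.39 ± 0.11, adjusted p = 0.00324), where the ranges overlapped. Within this list the leptomeningeal level thus ran from a small share of the microglial mean to above it. Cx3cr1, the gene whose locus carries the sorted reporter, was at 804 and 787 CPM (mutant) and 1231 and 1025 CPM (control), against 455 to 1343 CPM with a median of 1122 CPM in microglia (-0.17 ± 0.17, adjusted p = 0.435). Its lowest microglial value, 455 CPM, belongs to mutant library 4, and without that library Cx3cr1 was called lower in leptomeningeal cells (-0.28, adjusted p = 0.0292). Gpr34, a lysophosphatidylserine receptor gene, was at 141 to 229.5 CPM, against 63.8 to 328 CPM (-0.35 ± 0.29, adjusted p = 0.325), and its lowest value too was that of mutant library 4. Hpgds, the haematopoietic prostaglandin D synthase gene, was the 1 member that rose (315 to 395 CPM against 186 to 317 CPM, overlapping; 0.43 ± 0.13, adjusted p = 0.00502), and it lost the call with library totals alone (0.24, adjusted p = 0.147) and without control leptomeningeal library 1 (0.28, adjusted p = 0.117).

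Transcription factors of macrophage identity split, with 16 of 40 higher, 17 lower and a median of -0.08. Spi1, which encodes PU.1 and is needed by both cell types, was at 740.2 to 897 CPM in leptomeningeal cells, against 708 to 822 CPM in microglia (0.09 ± 0.09, adjusted p = 0.444). Klf4, a zinc finger factor, was at 216 and 223 CPM (mutant) and 157 and 176 CPM (control), against 16.2 to 21.3 CPM with a median of 18.4 CPM in host microglia (3.36 ± 0.11, adjusted p = 1.65e-29), with no overlap. Id3, an inhibitor of helix-loop-helix factors, was at 14.8 to 41.4 CPM, against 1.16 to 3.99 CPM (3.64 ± 0.32, adjusted p = 1.2e-12). Tfec, of the MiT/TFE family, was at 7.68 to 16.4 CPM, against 0 to 1.75 CPM (4.04 ± 0.46, adjusted p = 2.28e-10). Pparg, the lipid-sensing nuclear receptor gene, had 17 UMIs over the leptomeningeal and 1 over the microglial libraries, a ratio of 71.1 with a counting interval of 11.1 to 2972. On the lower side, besides Sall1, were Hhex, a homeobox gene, and Smad3, which relays TGF-beta signals, with differences of -2.16 ± 0.13 and -2.03 ± 0.17, and neither overlapped. Smaller drops of about 2-fold were those of Mef2a (-1.02 ± 0.14), Cebpa (-1.01 ± 0.13) and Irf8 (-0.93 ± 0.10), factors of microglial and myeloid development.

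Core genes of antigen presentation on MHC class II were far higher in leptomeningeal cells, while some accessory genes were lower. H2-Ab1, the beta chain of I-A, was at 7355 and 8048 CPM (mutant) and 5555 and 6230.0 CPM (control), against 179 to 662 CPM with a median of 296 CPM in host microglia (4.31 ± 0.15, adjusted p = 3.44e-21). Cd74, the invariant chain, was at 6450.3 and 7358 CPM (mutant) and 5341 and 5708 CPM (control), against 198 to 643 CPM with a median of 288 CPM (4.22 ± 0.15, adjusted p = 1.15e-20). Ciita, the transactivator of the class II genes, was at 58.1 to 102 CPM, against 0.852 to 6.83 CPM (4.72 ± 0.22, adjusted p = 5.87e-21). None of the 3 overlapped. H2-Oa, whose product restrains peptide loading, fell (28.3 to 40.7 CPM against 58.8 to 79.8 CPM; -1.10 ± 0.14, adjusted p = 7.11e-09), as did Ctss, the cathepsin that cleaves the invariant chain, by a smaller amount (-0.39 ± 0.10, adjusted p = 0.000806). Of the 11 tested genes of the list 7 rose and 3 fell, with a median of 0.51, and with library totals alone 5 rose and 4 fell. The median was 0.28 without control leptomeningeal library 2. Dendritic and B cell markers, whose cells also carry MHC class II, are given further below, and their part in these values was not tested.

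Of 19 complement genes 10 rose and 3 fell, with a median of 0.67, and 6 did not pass. Their summed share ran the other way, at 2.87% to 3.28% of UMIs in leptomeningeal cells and 3.49% to 4.51% in microglia, with no overlap. The median was 1.34 without mutant microglia library 4, 1.20 without control leptomeningeal library 1 and 1.27 without mutant leptomeningeal library 2. Components C4b and C2, which form the classical convertase, rose: C4b was at 1271 and 1209 CPM (mutant) and 749 and 831 CPM (control), against 5.65 to 16.7 CPM with a median of 6.93 CPM in host microglia (6.89 ± 0.17, adjusted p = 3.93e-25). C2 was at 49.1 to 90.2 CPM, against 0 to 2.28 CPM (6.50 ± 0.28, adjusted p = 8.27e-25). Cfp, properdin of the alternative pathway, was at 203 to 352 CPM, against 10.7 to 15.7 CPM (4.43 ± 0.13, adjusted p = 6e-31). C3, the central component, was at 31.3 to 58.3 CPM, against 1.71 to 12 CPM (3.24 ± 0.53, adjusted p = 1.94e-05). The regulator genes Cd55 and Serping1, the C1 inhibitor, had 95 and 77 UMIs in leptomeningeal and 0 in microglial libraries, at least 132-fold and 107-fold higher. The initiating C1q chains were abundant in both compartments. C1qa was at 10103 to 12622 CPM, against 8868 to 11605 CPM (0.08 ± 0.11, adjusted p = 0.546), while C1qb and C1qc fell by 0.59 and 0.58 on the log2 scale (adjusted p = 0.000354 and 4.94e-05), the ranges of C1qb overlapping. Itgam, the alpha chain of complement receptor 3, was at 314 to 421 CPM, against 760.2 to 1129.8 CPM (-1.301 ± 0.11, adjusted p = 8.53e-15).

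Of 36 chemokine and cytokine ligands 23 rose and 9 fell, with a median of 1.18. Without mutant leptomeningeal library 2 the 9 lower calls became 4, with 21 higher. The monocyte attractants Ccl7 and Ccl2 were at 310.1 to 429 CPM and 489 to 721 CPM in leptomeningeal cells, against 2.32 to 6.83 CPM and 20.4 to 38.2 CPM in microglia (6.38 ± 0.18, adjusted p = 6.18e-25, and 4.29 ± 0.15, adjusted p = 1.73e-21). Cxcl2, a neutrophil attractant, was at 193 to 244 CPM, against 3.44 to 20.4 CPM (4.07 ± 0.25, adjusted p = 4.83e-12). The interleukin-1 genes went apart: Il1b was at 191 and 267 CPM (mutant) and 202 and 311 CPM (control), against 11.4 to 33.2 CPM with a median of 20.9 CPM in host microglia (3.49 ± 0.17, adjusted p = 5.96e-16), whereas Il1a fell (13.4 to 24.6 CPM against 14.8 to 54.5 CPM; -1.24 ± 0.27, adjusted p = 0.000236), with an overlap through mutant microglia library 4 at 14.8 CPM. Pdgfb, a platelet-derived growth factor gene, fell too and was at 64.8 to 102 CPM, against 301 to 470.3 CPM (-2.31 ± 0.19, adjusted p = 3.43e-11).

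Among 31 receptors for these ligands 11 rose (35.5%, against 31.1% of all genes) and 15 fell (48.4%, against 25.7%), with a median of -0.17. Of the chemokine receptor genes, Ccr1 was at 146 to 199.9 CPM, against 3.99 to 10.2 CPM in microglia (4.40 ± 0.15, adjusted p = 7.17e-29), and Ccr2 and Cxcr4 had log2 differences of 3.89 ± 0.27 and 2.97 ± 0.30, while Cx3cr1 did not pass, as given above. The TGF-beta receptor gene Tgfbr1 was at 234 and 203 CPM (mutant) and 352 and 274 CPM (control), against 1034 to 1486 CPM with a median of 1215 CPM in host microglia (-2.23 ± 0.19, adjusted p = 7.77e-11). Ifngr1, for interferon gamma, Csf3r, for granulocyte colony-stimulating factor, and Il10ra, for interleukin 10, fell by 2.24, 2.39 and 1.31 on the log2 scale (SE 0.12, 0.13 and 0.10). All 3 had leptomeningeal values below every microglial one.

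Toll-like and pattern receptors were mixed, with 10 of 23 higher (43.5%, against 31.1% of all genes), 6 lower (26.1%, against 25.7%) and a median of 0.32. The median was 0.13 over 24 genes without control leptomeningeal library 1. The lectin Mincle, encoded by Clec4e, was at 9.21 to 19.5 CPM, against 0 to 1.71 CPM in microglia (4.12 ± 0.41, adjusted p = 7.24e-12), and Ly96 and Cd14, partners of TLR4, had differences of 3.49 ± 0.30 and 1.34 ± 0.12. Cd180, a relative of TLR4, and Tlr12 were lower, with differences of -2.07 ± 0.12 and -2.33 ± 0.21. Of 8 Fc receptor genes 4 rose and 3 fell, and with library totals alone 3 rose and 4 fell. The shared signalling chain gene Fcer1g was at 3102 to 4263 CPM, against 1974 to 2848 CPM (0.67 ± 0.11, adjusted p = 1.59e-06). The high-affinity receptor gene Fcgr1 was at 119.6 to 161 CPM, against 223 to 269.9 CPM (-0.88 ± 0.15, adjusted p = 5.11e-06). Fcrl1 was at 2.06 to 19.96 CPM, against 51.7 to 70.6 CPM (-2.57 ± 0.21, adjusted p = 1.77e-14).

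Genes of cholesterol and lipoprotein handling were mostly higher, Apoe among them. Apoe, the main apolipoprotein gene of the brain, was at 61549 and 52345 CPM (mutant) and 46583 and 59290.3 CPM (control) in leptomeningeal cells. In host microglia it was at 2347 to 4461 CPM with a median of 3932 CPM (3.95 ± 0.12, adjusted p = 2.15e-27). That range joins 4220 to 4461 CPM in mutant and 2347 to 3644 CPM in control chimeras, which did not overlap. The difference between these microglia was not tested here. The cholesterol and lipoprotein list took 5.20% to 6.44% of UMIs in leptomeningeal cells and 0.573% to 0.798% in microglia. Apoe itself made up most of the leptomeningeal share, so that share says little about the other members. The Apoe levels of the 2 compartments did not overlap. Pltp, the phospholipid transfer protein gene, was at 1349.7 and 1344 CPM (mutant) and 894 and 1051 CPM (control), against 12.3 to 24.5 CPM with a median of 15.6 CPM (6.17 ± 0.14, adjusted p = 4.56e-30). The lipid droplet gene Plin2 had a difference of 2.32 ± 0.14. The exporters parted: Abca1 rose (102 to 116 CPM against 23.9 to 88.8 CPM; 0.78 ± 0.21, adjusted p = 0.00236) and Abcg1 fell (12.8 to 29.9 CPM against 28.6 to 45.4 CPM, overlapping; -0.94 ± 0.20, adjusted p = 9.39e-05). Npc1, which moves cholesterol out of lysosomes, and the uptake receptor gene Lrp1 fell as well (-0.90 ± 0.12 and -0.86 ± 0.11). In all, 20 of 31 genes rose and 5 fell, with a median of 1.13.

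Iron and heme genes were mostly higher, with 12 of 20 called up, 2 down and a median of 0.77. Beside Cd163 and Cp, which the list shares with those above, Hp, haptoglobin, was at 43.2 to 103 CPM, against 1.16 to 5.69 CPM in microglia (4.91 ± 0.50, adjusted p = 2.74e-08), and is a gene that monocytes and neutrophils also carry. The transferrin receptor gene Tfrc was at 29.2 to 34.3 CPM, against 2.28 to 6.01 CPM (2.79 ± 0.22, adjusted p = 3.99e-15), and heme oxygenase, Hmox1, at 248 and 168 CPM (mutant) and 122 and 126 CPM (control), against 38.3 to 63.8 CPM with a median of 58.7 CPM in host microglia (1.54 ± 0.12, adjusted p = 8.42e-15). The ferritin chains Fth1 and Ftl1 were abundant in both and higher in leptomeningeal cells by 0.83 ± 0.10 and 1.71 ± 0.11.

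Of 28 lysosomal proteases and hydrolases 9 were higher (32.1%, against 31.1% of all genes) and 10 lower (35.7%, against 25.7%), with a median of -0.08. With library totals alone 7 were higher and 14 lower, with a median of -0.27. Ctsc, cathepsin C, was at 864 to 1071 CPM, against 158 to 267 CPM in microglia (2.07 ± 0.11, adjusted p = 2.81e-21). Hexa, a lysosomal hydrolase gene, was at 1767 to 2247 CPM, against 1006 to 1363 CPM (0.92 ± 0.10, adjusted p = 1.87e-11). Cst3, the protease inhibitor cystatin C, fell (17460.4 to 30735 CPM against 34806 to 60611 CPM; -1.09 ± 0.11, adjusted p = 2.6e-11), as did cathepsins L and D, encoded by Ctsl (-1.03 ± 0.11) and Ctsd (-0.75 ± 0.12). Of 29 genes known as disease-associated in microglia, 16 rose and 6 fell, with a median of 0.83 (0.50 without mutant leptomeningeal library 1). Lyz2, lysozyme, was at 8725 and 8596 CPM (mutant) and 7248 and 9181 CPM (control), against 408 to 642 CPM with a median of 517 CPM in host microglia (4.00 ± 0.09, adjusted p = 1.16e-34). Lgals3, galectin 3, and Clec7a, Dectin-1, had differences of 3.64 ± 0.17 and 3.07 ± 0.12. Cd9, a tetraspanin gene of the same list, ran against them at 84.1 to 226 CPM, against 1082 to 1606 CPM (-3.04 ± 0.13, adjusted p = 2.15e-24), and Trem2 fell as given above.

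**Figure D3:**
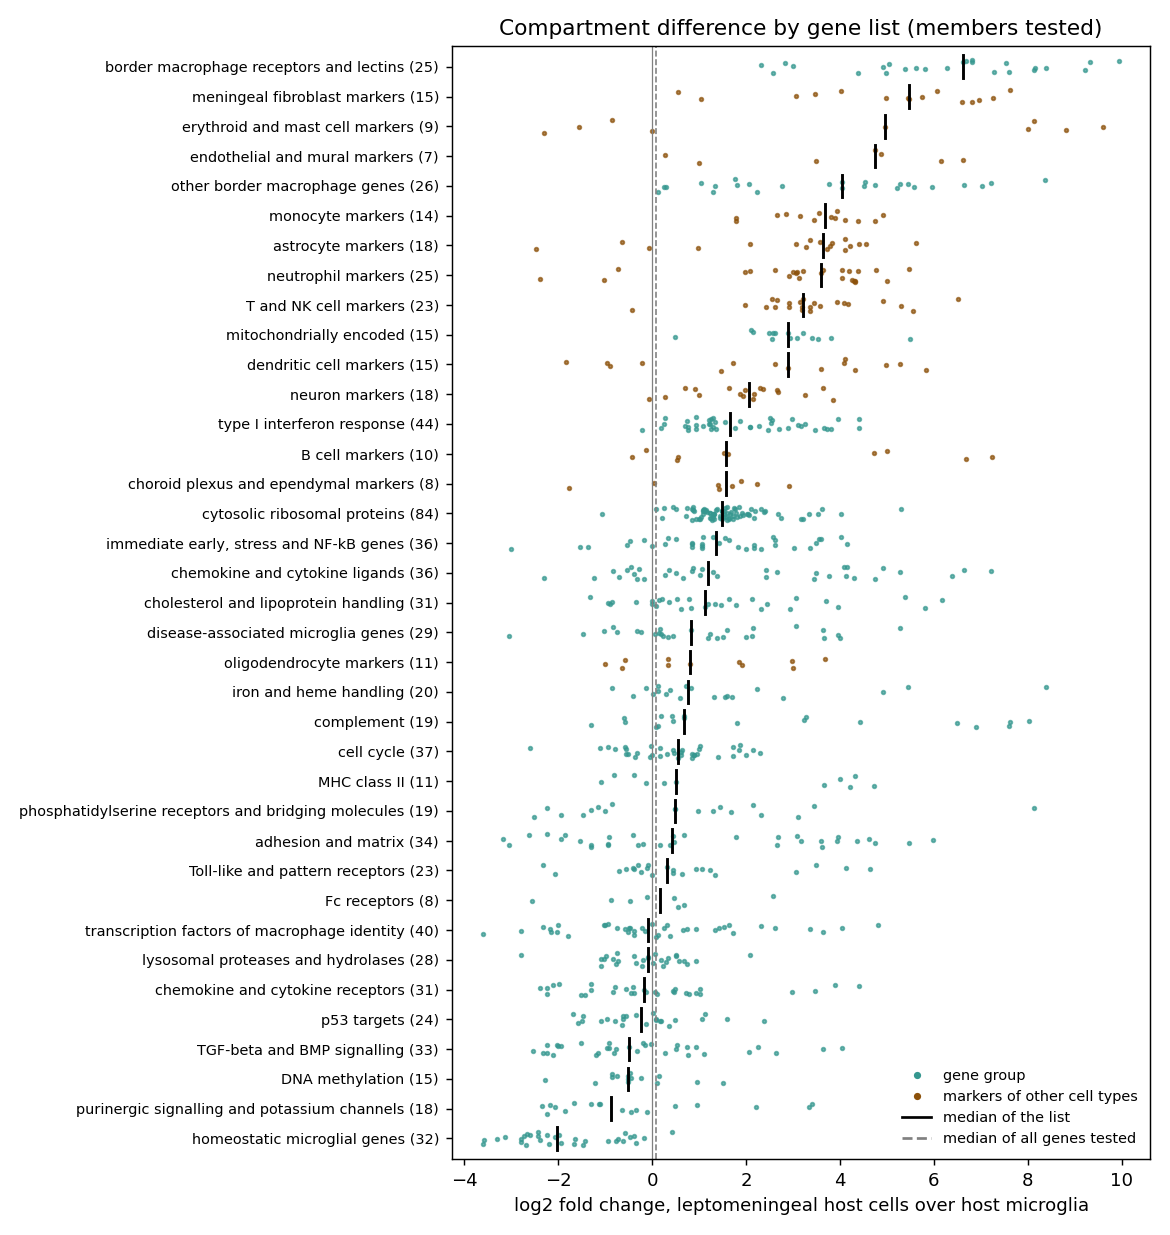
Log2 differences of leptomeningeal host cells over host microglia for the tested members of each gene list, 1 point per gene and a black bar at the median, with the number tested in parentheses. Teal points are gene groups and brown points are markers of other cell types, sorted by median; the dashed line is the median of all tested genes at 0.08. Receptors and lectins have the highest median at 6.63 and homeostatic microglial genes the lowest at -2.03.

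TGF-beta and BMP signalling, which is known to maintain microglia, had 7 of 33 genes higher and 16 lower, with a median of -0.49. The median was -0.95 over 34 genes without control leptomeningeal library 1. Besides Tgfbr1 and Smad3, the type I receptor gene Acvr1 was at 6.17 to 13 CPM, against 44.8 to 72.9 CPM in microglia (-2.55 ± 0.22, adjusted p = 1.4e-13). The inhibitory Smad7 was at 13.4 to 19.96 CPM, against 76 to 88.8 CPM (-2.33 ± 0.17, adjusted p = 1.98e-16). The integrin genes Itgav and Itgb5, whose products can bind latent TGF-beta, fell by 2.23 and 1.93 on the log2 scale (SE 0.25 and 0.13). Nrros, which anchors latent TGF-beta on myeloid cells, rose slightly (569 to 669 CPM against 380.2 to 555 CPM; 0.50 ± 0.10, adjusted p = 4.84e-05), and so did the receptor gene Acvrl1 (0.92 ± 0.13, adjusted p = 5.33e-08).

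Purinergic receptors and potassium channels, by which microglia sense ATP and its products, had 5 of 18 higher and 11 lower, with a median of -0.88. P2ry13, a further ADP receptor gene, was at 407 to 692 CPM, against 1411 to 2128 CPM in microglia (-1.67 ± 0.17, adjusted p = 2.13e-09). The adenosine receptor gene Adora3 was at 16.2 to 38.4 CPM, against 112 to 135 CPM (-2.34 ± 0.17, adjusted p = 4.02e-16). Kcnk13, which encodes the channel THIK-1, and Entpd1, the ectonucleotidase CD39, had differences of -2.25 ± 0.17 and -1.13 ± 0.11. The ATP-gated channel gene P2rx4 was higher, at 184 to 201 CPM, against 89.3 to 133 CPM (0.96 ± 0.10, adjusted p = 3.41e-11). None of these 5 genes had overlapping groups.

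Receptors and bridging molecules for phosphatidylserine, the signal of dying cells, were evenly divided, with 8 of 19 higher, 8 lower and a median of 0.49 (0.22 without control leptomeningeal library 1). The TAM receptor genes parted: Axl was at 248 and 288 CPM (mutant) and 187 and 217 CPM (control), against 39.1 to 73.9 CPM with a median of 53.1 CPM in host microglia (2.14 ± 0.12, adjusted p = 1.12e-20). Mertk was at 241 and 235 CPM (mutant) and 357 and 268 CPM (control), against 449.9 to 605 CPM with a median of 555 CPM (-1.004 ± 0.13, adjusted p = 8.38e-09). Neither overlapped, so the pair was high in opposite compartments. The TIM family parted likewise, with Timd4 higher, as above, and Havcr2, TIM-3, lower at 35.7 to 62.9 CPM, against 243 to 281 CPM (-2.53 ± 0.13, adjusted p = 4.17e-22). Anxa5, annexin A5, which binds phosphatidylserine, was at 323 to 467 CPM, against 38.5 to 64.3 CPM (3.10 ± 0.11, adjusted p = 8.33e-28).

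Adhesion and matrix genes went both ways, 16 of 34 higher and 13 lower, with a median of 0.41 (0.19 without control leptomeningeal library 2). Cd93, a C-type lectin-like receptor gene, was at 78.3 to 139 CPM, against 0.386 to 3.49 CPM in microglia (5.98 ± 0.19, adjusted p = 1.6e-29). The matrix protease gene Mmp9, which neutrophils also carry, was at 44.5 to 105 CPM, against 1.14 to 2.58 CPM (5.46 ± 0.30, adjusted p = 3.62e-15). Itga4 and its ligand Vcam1 had differences of 4.74 ± 0.22 and 3.95 ± 0.17, and the hyaluronan receptor gene Cd44 of 2.67 ± 0.21. On the lower side were the cell contact genes Pecam1 at 2.06 to 6.14 CPM, against 27 to 43.3 CPM (-3.18 ± 0.30, adjusted p = 1.03e-12), and Jam2 (-2.63 ± 0.22), the laminin receptor gene Itga6 (-1.87 ± 0.15) and the tetraspanin gene Cd81 (-1.54 ± 0.11).

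Interferon-stimulated genes were higher in leptomeningeal cells almost throughout: 40 of 44 rose and 0 fell, against 31.1% and 25.7% of all genes, with a median of 1.66, and the list took 0.8293% to 1.02% of UMIs against 0.518% to 0.596% in microglia. Ifitm3, an antiviral membrane protein gene, was at 1153 and 753 CPM (mutant) and 875 and 1044 CPM (control), against 32.5 to 57.5 CPM with a median of 41.8 CPM in host microglia (4.41 ± 0.16, adjusted p = 9.76e-19). Isg15, a ubiquitin-like modifier, was at 244 and 133 CPM (mutant) and 144 and 106 CPM (control), against 25.1 to 37.2 CPM with a median of 30.6 CPM (2.27 ± 0.28, adjusted p = 3.66e-07). Ifit1, which binds viral RNA, was low in both compartments, at 13 to 19.5 CPM, against 0.582 to 4.09 CPM (2.88 ± 0.36, adjusted p = 3.65e-09). None of these overlapped, although mutant leptomeningeal library 1 was the highest in Ifitm3, Isg15 and Ifit1. Irf7, the factor that amplifies the response, and Ifi204, a DNA sensor gene, had differences of 2.71 ± 0.25 and 3.81 ± 0.16. With library totals alone 39 members rose and 1 fell.

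The promoters of Isg15 and Ifit1 are shown because both genes rose and both hold matches to the interferon regulatory factor (IRF) motif (GAAA, any 2 bases, GAAA). Capitals mark these matches and any to the other searched motifs. They are the 250 bases before the RefSeq start on GRCm38.p6, chr4:156200819-156201068, minus strand for Isg15 and chr19:34640639-34640888, plus strand for Ifit1.
Isg15: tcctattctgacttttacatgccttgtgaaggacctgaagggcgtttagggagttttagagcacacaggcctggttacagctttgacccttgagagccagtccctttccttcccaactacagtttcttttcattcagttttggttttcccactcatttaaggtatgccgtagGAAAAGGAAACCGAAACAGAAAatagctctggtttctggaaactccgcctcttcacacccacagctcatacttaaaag
Ifit1: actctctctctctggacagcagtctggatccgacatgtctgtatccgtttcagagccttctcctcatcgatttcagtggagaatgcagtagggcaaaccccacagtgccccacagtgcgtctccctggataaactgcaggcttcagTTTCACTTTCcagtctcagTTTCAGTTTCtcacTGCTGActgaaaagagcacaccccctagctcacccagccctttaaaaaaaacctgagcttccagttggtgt
Isg15 held 3 overlapping IRF matches on its own strand, beginning 78, 72 and 66 bases before the start. Ifit1 held 2 on the minus strand, at 104 and 85 bases, and 1 MAF core at 71 bases. The IRF motif was in 16 of 34 promoters of the interferon list (47.1%), in 3.86% of promoters of genes called higher in leptomeningeal cells, in 2.47% of those called lower and in 2.78% of all. It was in 1 of 21 promoters of other border macrophage genes (4.76%) and in 0 of those of receptors and lectins and of homeostatic microglial genes.

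Immediate early, stress and NF-kB genes rose in 29 of 36 cases and fell in 4, with a median of 1.35. Fos was at 810.0 and 1003 CPM (mutant) and 875 and 738 CPM (control), against 111 to 169 CPM with a median of 136 CPM in host microglia (2.62 ± 0.12, adjusted p = 7.58e-23). Fosb was at 285 to 526 CPM, against 13.9 to 33 CPM (4.01 ± 0.15, adjusted p = 3.85e-21). Egr2, Egr1 and the NF-kB regulator gene Nfkbiz had differences of 3.60 ± 0.18, 1.64 ± 0.13 and 3.55 ± 0.14. None of these overlapped. Tissue digestion differed between the compartments, and its part and that of the compartment cannot be told apart. Hspa1b, a heat shock protein gene, went against them at 13 to 41.7 CPM, against 112 to 228 CPM (-3.01 ± 0.34, adjusted p = 1.25e-07), and so did Myc (-1.53 ± 0.20).

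Of 24 targets of p53, which respond to irradiation, 5 rose and 11 fell, with a median of -0.24. Of them 2 rose without control leptomeningeal library 1, and the median was -0.41 without control leptomeningeal library 2 and -0.45 without mutant leptomeningeal library 1. Cdkn1a, the cell cycle inhibitor p21, was at 1027 to 1394 CPM, against 1473 to 2163 CPM in microglia (-0.63 ± 0.11, adjusted p = 7.35e-06), and the pro-apoptotic genes Bax and Bbc3 had differences of -0.96 ± 0.11 and -1.58 ± 0.20. Of 37 cell cycle genes 12 rose (32.4%, against 31.1% of all genes) and 4 fell (10.8%, against 25.7%), with a median of 0.54. Counts and median depended on single libraries: the lower calls became 2 without control leptomeningeal library 1 or mutant microglia library 4 and 1 without control or mutant leptomeningeal library 2, and the median 0.26 without control and 0.18 without mutant leptomeningeal library 1. With library totals alone 9 rose and 6 fell. The centromere histone gene Cenpa was at 36.1 to 47.3 CPM, against 5.41 to 12.6 CPM (2.14 ± 0.22, adjusted p = 1.97e-10), and the replication helicase gene Mcm7 ran the other way (-1.11 ± 0.22). Among 15 DNA methylation genes 1 rose and 9 fell, with a median of -0.51. Mouse Dnmt3a, which in these host cells is not the allele recombined in the marrow, was at 42.1 and 44.4 CPM (mutant) and 49.9 and 40.3 CPM (control), against 96.8 to 113 CPM with a median of 103 CPM in host microglia (-1.22 ± 0.14, adjusted p = 2.26e-10), and the 1 gene that rose was the methyl-CpG reader gene Mbd2 (1.51 ± 0.14).

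Several of the largest differences and smallest p-values fell outside these groups. Among those higher in leptomeningeal cells were Chp2, a calcineurin-like calcium sensor gene (57.6 to 103 CPM against 0 to 0.571 CPM in microglia; 8.16 ± 0.32, adjusted p = 4.8e-26), Fcna, a ficolin that recognises microbial sugars (213 to 455 CPM against 0.773 to 1.71 CPM; 8.09 ± 0.41, adjusted p = 1.51e-13), and Ccn1, a matricellular protein gene (42.2 to 90.5 CPM against 0 to 0.869 CPM; 7.99 ± 0.38, adjusted p = 8.58e-23). Gpx3, a secreted glutathione peroxidase, was at 458 to 695 CPM, against 1.74 to 7.40 CPM (7.31 ± 0.18, adjusted p = 5.34e-27). Fmod, the collagen-binding proteoglycan fibromodulin, had 175 UMIs in leptomeningeal and 3 in microglial libraries, a ratio of 244 with a counting interval of 82.1 to 1195, and is also a fibroblast gene. The smallest p-values included Lgals1, galectin 1 (955 to 1167 CPM against 22.2 to 41.9 CPM; 5.11 ± 0.11, adjusted p = 1.98e-36), the nuclear long noncoding RNA Neat1 (746 to 963 CPM against 31.3 to 44.3 CPM; 4.49 ± 0.10, adjusted p = 1.98e-36), Ifitm2 (5.33 ± 0.14) and Pla2g7, a secreted phospholipase that cleaves platelet-activating factor (5.22 ± 0.14).

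The largest drop among genes of at least 10 CPM with no overlap was that of Khdrbs3, an RNA-binding protein gene, at 1.03 and 2.69 CPM (mutant) and 4.61 and 7.83 CPM (control), against 58.6 to 89.8 CPM with a median of 76.3 CPM in host microglia (-4.40 ± 0.29, adjusted p = 1.42e-17). Nrarp, a feedback inhibitor of Notch signalling, was at 0 to 2.24 CPM, against 14.3 to 23.9 CPM (-4.37 ± 0.48, adjusted p = 1.02e-10). Slc7a5, a large neutral amino acid transporter gene, was at 0 to 8.44 CPM, against 44.7 to 73.3 CPM (-4.03 ± 0.31, adjusted p = 1.05e-14). Both had leptomeningeal libraries at or near the floor. Cdk5r1, the activator of Cdk5, was at 6.17 to 26.9 CPM, against 129.8 to 163 CPM (-3.50 ± 0.17, adjusted p = 1.36e-22). The smallest p-values among genes that fell included Usp2, a deubiquitinase gene (-2.86 ± 0.12), Lpcat2, an enzyme gene of platelet-activating factor synthesis (-2.76 ± 0.12), and Sgk1, a kinase gene induced by glucocorticoids (-3.39 ± 0.15). Lpcat2 and Pla2g7, which make and break down platelet-activating factor, thus differed in opposite directions, with no overlap in either.

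Most markers of other cell types that passed were higher in the leptomeningeal libraries, and their part in the results above was not tested. Meningeal fibroblast markers had 14 of 15 tested members higher, 0 lower and a median of 5.48, and took 0.379% to 0.576% of UMIs in leptomeningeal cells and 0.00305% to 0.00409% in microglia. Most of it was Ptgds, the prostaglandin D synthase gene, with 20195 UMIs, at 4454 and 5243 CPM (mutant) and 3857 and 3408 CPM (control), against 18 to 26.8 CPM with a median of 20.2 CPM in host microglia (7.62 ± 0.14, adjusted p = 2.45e-37). Other fibroblast genes were uneven. Over the 4 leptomeningeal libraries Col1a1 had 1 UMI, Col3a1 1, Pdgfra 3 and Lum 0. Col1a2 was higher in leptomeningeal cells, at 5.37 to 16.2 CPM against 0 to 0.773 CPM in microglia. Dcn was higher too, at 10.3 to 21.5 CPM against 0 to 0.582 CPM, with no overlap in either. Of 24 fibroblast markers 9 had too few counts to test. Endothelial and mural markers were higher in 5 of 7 tested members, with 4 UMIs of Cldn5 and 1 of Cdh5 in the leptomeningeal libraries. Of 22 such markers 15 were not tested, so this count covers only members with enough counts. Without the low-count filter 12 were tested, 1 was lower, and the median was 3.12 in place of 4.75. Thinned counts left 2 to test, and 2 were higher.

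T and NK cell markers were higher in 22 of 23 members with a median of 3.21, at 0.0744% to 0.109% of UMIs in leptomeningeal cells and 0.00698% to 0.0217% in microglia. Cd3d, of the T cell receptor complex, was at 18.5 to 20.9 CPM, against 0 to 2.85 CPM in microglia (4.08 ± 0.36, adjusted p = 9.97e-14). Cd8a was at 43.8 to 53.7 CPM, against 0.429 to 6.83 CPM (4.17 ± 0.28, adjusted p = 1.77e-15). Cd4, which some macrophages also carry, was at 66 to 112 CPM, against 0 to 3.49 CPM (6.51 ± 0.28, adjusted p = 2.5e-24). Monocyte markers were higher in 14 of 14 members, at 0.0363% to 0.0606% against 0.00285% to 0.00635% of UMIs, and dendritic cell markers in 11 of 15 with 1 lower. The summed dendritic share ran the other way, at 0.0554% to 0.0620% of UMIs in leptomeningeal cells and 0.0763% to 0.0968% in microglia, with no overlap. Neutrophil markers were higher in 20 of 25 and lower in 1, at 0.227% to 0.656% against 0.0609% to 0.162% of UMIs. S100a9, an abundant neutrophil transcript, was at 1251 and 1588 CPM (mutant) and 1999 and 787 CPM (control), against 64.8 to 459.6 CPM with a median of 153 CPM in host microglia (3.13 ± 0.47, adjusted p = 8.55e-06). Lcn2, lipocalin 2, was at 245 and 619 CPM (mutant) and 691 and 126 CPM (control), against 4.64 to 54.7 CPM with a median of 21.9 CPM (4.30 ± 0.56, adjusted p = 1.07e-06). The highest microglial values of both belong to mutant library 4, and for S100a9 the other 7 were at 64.8 to 196 CPM.

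Markers of some cell types were uneven among the leptomeningeal libraries. Igkc, the immunoglobulin kappa constant gene, was at 27.8 and 2704 CPM (mutant) and 29.2 and 3067 CPM (control), against 1.43 to 28 CPM with a median of 11.4 CPM in host microglia, so it was high in library 2 of each kind of chimera and near the microglial range in library 1. The reverse held for Mcpt4, a mast cell protease gene, at 80.2 and 5.38 CPM (mutant) and 166 and 0 CPM (control), with 0 UMIs in all 8 microglial libraries. B cell markers were higher in 6 of 10 tested members, in 3 of 11 without mutant and 4 of 11 without control leptomeningeal library 2. They took 0.0638% and 0.547% of UMIs (mutant) and 0.0673% and 0.398% (control), against 0.0774% to 0.0841% in microglia, so both libraries 1 lay below every microglial one. Erythroid and mast cell markers were higher in 5 of 9, and in 1 without control leptomeningeal library 1. Astrocyte and neuron markers were higher in 13 of 18 and 12 of 18 members, with 1 and 0 lower. The neuron count depended on the fit and on depth. With the 12 host libraries fitted alone 5 of 9 tested neuron markers were higher, with a median of 1.01 in place of 2.06. With thinned counts 3 of 14 were higher. Slc1a3, a glutamate transporter gene that microglia can also carry, was lower (17.5 to 33.9 CPM against 124 to 165 CPM; -2.48 ± 0.31, adjusted p = 4.16e-07). Oligodendrocyte markers were higher in 6 of 11 and lower in 1, and choroid plexus and ependymal markers higher in 2 of 8, and in 0 without control leptomeningeal library 2 or mutant leptomeningeal library 1.

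**Figure D4:**
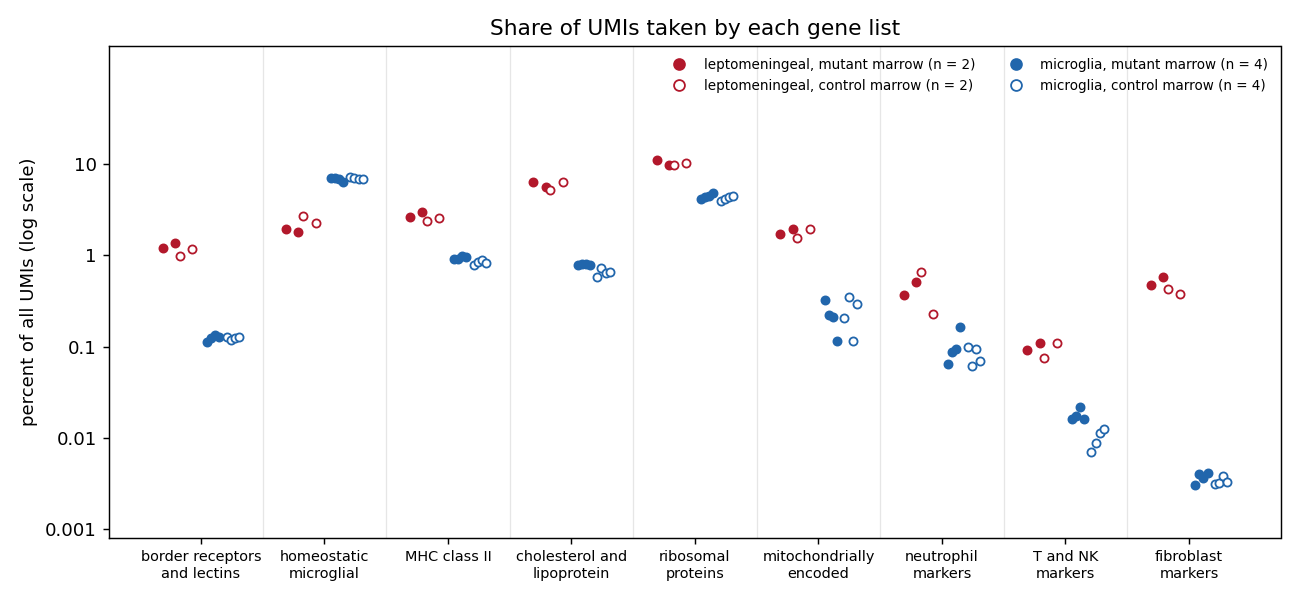
Percent of all UMIs taken by 9 gene lists in each host library, on a log axis. Red points are leptomeningeal host cells (n = 4) and blue points host microglia (n = 8), filled for mutant and open for control chimeras. The 2 colours do not overlap in any list; only homeostatic microglial genes are lower in red. Neutrophil markers vary most among the red points, 0.227% to 0.656%. Apoe makes up most of the red cholesterol and lipoprotein share.

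Marrow-derived cells of the same kinds of chimera gave the most similar comparison, donor leptomeningeal cells against donor microglia with 8 libraries each. It called 7646 genes (62%), 3757 higher (30.5%) and 3889 lower (31.5%) in leptomeningeal donor cells. The genes called in both origins were 68.5% of those of host and 62.6% of those of donor cells. They had the same direction in 3812 and opposite directions in 978 cases. The test of the difference between the compartment effects of host and donor cells called 5209 genes (42.3%), 2855 with a higher (23.2%) and 2354 with a lower (19.1%) difference in host cells. Homeostatic microglial genes fell in both, 29 of 32 in each, against 25.7% of all genes in host and 31.5% in donor cells. Their medians were -2.03 in host and -1.75 in donor cells. By the test, 7 and 8 members had a higher and a lower difference in host cells. Receptors and lectins rose in 25 of 25 cases in host and 24 of 25 in donor cells, against 31.1% and 30.5% of all genes. Their medians were 6.63 and 2.32, and in 20 of 25 the difference itself was larger in host cells by the test. The marker genes were among them. Mrc1 averaged 1323 ± 259.6 CPM in host leptomeningeal cells and 16.7 ± 2.77 CPM in host microglia, and 548 ± 89.99 CPM in donor leptomeningeal cells and 215 ± 33.3 CPM in donor microglia (SD, n = 4, 8, 8 and 8), which made the host difference larger by 4.92 ± 0.16 on the log2 scale (adjusted p = 3.14e-28). For Pf4, Lyve1 and Cd163 it was larger by 5.01 ± 0.20, 3.52 ± 0.83 and 5.64 ± 0.81.

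Apoe had opposite directions by origin. It averaged 54942 ± 6811 CPM in host leptomeningeal cells and 3622 ± 843 CPM in host microglia, and 39847 ± 7016 CPM in donor leptomeningeal cells and 93622 ± 15456 CPM in donor microglia, a difference of 5.17 ± 0.15 between origins (adjusted p = 1.76e-26). Pla2g7 too was higher in leptomeningeal host cells and lower in leptomeningeal donor cells (5.22 ± 0.14 and -0.42 ± 0.10). Ptgds, Cp, Lyz2, Neat1, Sorbs3, a vinculin-binding adaptor gene, Myo5a, an unconventional myosin gene, and Adam33, a metalloprotease gene, had host differences larger by 4.40, 5.23, 2.71, 2.82, 5.84, 3.93 and 4.51. In the other direction, Alox5ap, needed for leukotriene synthesis, averaged 476 ± 19.7 CPM in host leptomeningeal cells and 591 ± 49.3 CPM in host microglia, and 1017 ± 111 CPM in donor leptomeningeal cells and 197 ± 18.1 CPM in donor microglia, so that it fell in host cells (-0.31 ± 0.09) and rose in donor cells (2.37 ± 0.08). The same reversal was seen for H2-Oa, for the integrin chains Itgb2 and Itgam, for Coro1a, an actin regulator gene, for Nbeal2, a granule biogenesis gene, for the lactate transporter gene Slc16a3 and for the chemokine gene Ccl6, with differences between origins of -2.88, -2.42, -1.98, -2.24, -2.32, -2.89 and -2.10. Selplg fell by more in host than in donor cells, and Slc44a2, a choline transporter-like gene, fell in host cells and did not pass in donor cells, with differences between origins of -2.01 and -2.53. Markers of other cell types moved with this comparison, and their part in the differences between origins was not tested. Neutrophil markers took 0.227% to 0.656% of UMIs in leptomeningeal and 0.0609% to 0.162% in parenchymal host cells, and 4.02% to 10.7% in leptomeningeal and 0.124% to 1.21% in parenchymal donor cells. Choroid plexus and ependymal markers took 0.00273% to 0.0123% in leptomeningeal and 0.000441% to 0.0178% in parenchymal host cells, and 0.000674% to 0.0409% in leptomeningeal and 1.67% to 3.50% in parenchymal donor cells. For astrocyte markers the shares were 0.0258% to 0.0354% in leptomeningeal and 0.0170% to 0.0232% in parenchymal host cells, and 0.0223% to 0.0308% in leptomeningeal and 0.145% to 0.733% in parenchymal donor cells. For oligodendrocyte markers the shares were 0.0280% to 0.0378% in leptomeningeal and 0.0216% to 0.0259% in parenchymal host cells, and 0.0254% to 0.0374% in leptomeningeal and 0.0855% to 0.493% in parenchymal donor cells. For neuron markers the shares were 0.0190% to 0.0262% in leptomeningeal and 0.00363% to 0.00690% in parenchymal host cells, and 0.0131% to 0.0281% in leptomeningeal and 0.0482% to 0.233% in parenchymal donor cells. For mitochondrially encoded transcripts the shares were 1.57% to 1.93% in leptomeningeal and 0.114% to 0.349% in parenchymal host cells, and 1.10% to 1.65% in leptomeningeal and 1.58% to 4.72% in parenchymal donor cells. The median log2 difference of mitochondrial genes was 2.90 in host and -1.12 in donor cells. Donor microglial libraries thus held the highest shares of choroid plexus, astrocyte, oligodendrocyte and neuron markers, and donor leptomeningeal libraries the highest of neutrophil markers.

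**Figure D5:**
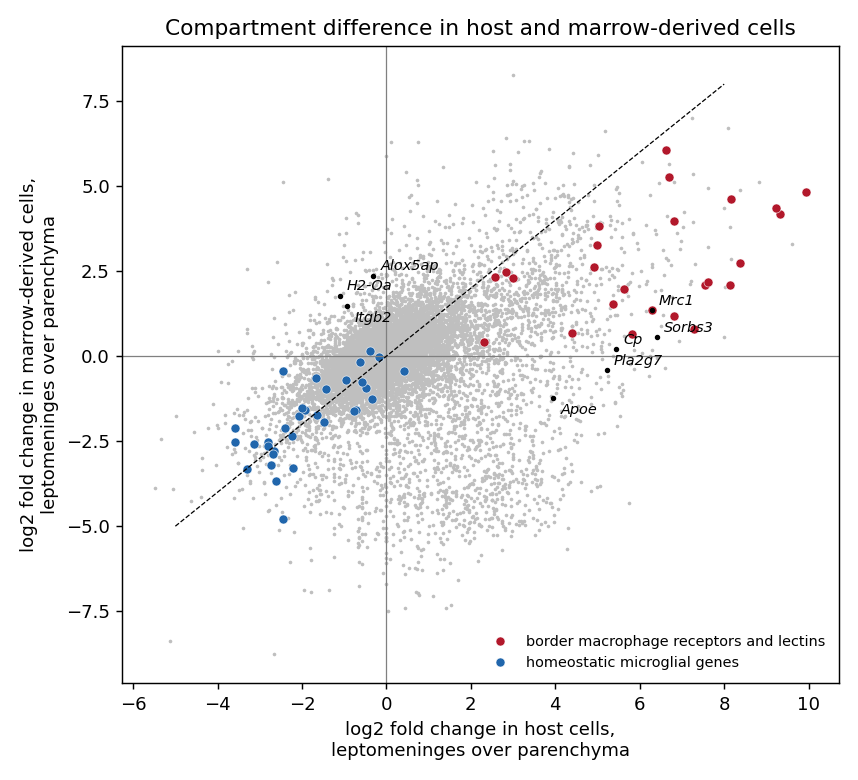
Log2 difference of leptomeninges over parenchyma in host cells (horizontal axis) and in marrow-derived cells (vertical axis) for the 12327 tested genes, with the line of equal differences dashed. Red points are receptors and lectins, which lie mostly below the line, blue points are homeostatic microglial genes, and black points are genes named for a tested difference between origins. Apoe lies at 3.95 in host and -1.22 in donor cells, and Alox5ap at -0.31 and 2.37.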

How the data were processed

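RNA of sorted cells was measured with MARS-seq in 28 libraries, on mm10 per the submitters' processing notes; no source used here names the aligner. The authors deposited raw UMI counts per gene, a normalized signal, for which each library's counts were divided by its size factor, and log2 values from an rlog transform, per the file headers. Only the counts were used. Groups came from the labels. Genes were kept by edgeR's filterByExpr (12327 of 14617) and tested with edgeR 4.0.16 (quasi-likelihood, robust, TMM scaling, 1 mean per group over 8 groups and 28 libraries, Benjamini-Hochberg at 0.05; R 4.3.3), averaging the compartment difference over mutant and control chimeras. Log2 differences are ± standard error, derived from the F value of the test, and averages are ± SD. CPM are UMIs scaled to a common TMM-adjusted library total. Counting intervals are exact at 95%, and ratios against 0 used 3 UMIs over the group. The compartment difference was fitted also within each kind of chimera, as the difference between them, and as the difference between host and donor cells.

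Members and gene lists were chosen with earlier results of these data known. Lists overlap in part, and list counts carry no test of their own. Named genes were the 15 largest differences in each direction with a mean of at least 10 CPM and no overlap between libraries, the 10 smallest p-values in each direction, list members, and the 10 smallest p-values in each direction between host and donor cells, of which some are described. Alternatives were DESeq2 1.42.0, voom in limma 3.58.1, other scaling, no filter, thinned counts, host libraries alone, a replicate block, and each host library left out. The fits were tested on simulated counts in which a small set of genes changed by equal folds up and down. The choice of scaling was thus not tested there. Gene positions are from GENCODE and promoters from RefSeq. A few genes of these lists are not reported here.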

Additional observations from a re-analysis of the deposited data

Results flagged for a closer look

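Within the groups of 4 microglial libraries, a single library lay far from the other 3 by Dixon's test in 26 of the 352 groups of values tested over 176 named genes, where chance alone flags about 1 in 20. In 8 of these the other 3 libraries were at 0, where any count is flagged; of the other 344 groups 18 were flagged, which is about that rate. Of the 26, 9 were in mutant microglia library 4, which also stood apart over all genes. There Il1a was low at 14.8 CPM, and Ifngr1, Cd81, Lpcat2, Ciita, C3 and C2 were high at 740, 2631, 1199, 6.83, 12 and 2.28 CPM. Pparg and Chp2 had 0.569 CPM each in it and 0 in the other 3 mutant libraries. Mutant microglia library 1 was high in Sparc, C4b and Ifit1 (9713, 16.7 and 4.09 CPM) and low in Csf1r and Lgals3 (7598 and 13.3 CPM). Mutant library 3 was high in Cd93 (3.49 CPM), low in Csf3r (306 CPM) and alone of its group in having a UMI of Cd209b and of Timd4 (0.582 CPM each). Among control microglia, library 1 was high in Gas6 (481 CPM), library 2 low in Adora3 and Fcrl1 (113 and 60.6 CPM), and library 3 high in Mef2a (340 CPM). Fmod had 0.426 CPM in control library 3, and Cd209g, Timd4 and Ccn1 had 0.571, 0.571 and 0.285 CPM in control library 4, against 0 in the others of the group.

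The compartment difference itself differed between host and donor cells, by the tested contrast, in 23 named genes. It was larger in host cells, on the log2 scale, for Sorbs3 (5.84), Pla2g7 and Cd163 (5.64 each), Cp (5.23), Apoe (5.17), Pf4 (5.01), Mrc1 (4.92), Adam33 (4.51), Ptgds (4.40), Myo5a (3.93), Lyve1 (3.52), Neat1 (2.82) and Lyz2 (2.71). It was lower in host cells for Slc16a3 (-2.89), H2-Oa (-2.88), Alox5ap (-2.68), Slc44a2 (-2.53), Itgb2 (-2.42), Nbeal2 (-2.32), Coro1a (-2.24), Ccl6 (-2.10), Selplg (-2.01) and Itgam (-1.98).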

How the results depend on the processing

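Of 3953 values of named genes under the alternatives, 3945 kept their direction and their side of the threshold. The exceptions among called genes were Hpgds and, among those not called, Cx3cr1, as given above. Hpgd turned to -0.063 with library totals alone, and Spi1 and C1qa to -0.10 each; none was called. Leaving out a library gave -0.042 to 0.14 for Spi1 and -0.015 to 0.147 for C1qa, lowest without control leptomeningeal library 1. Many named genes were chosen for large differences, small p-values or no overlap in these same data. The count of 3945 was thus in part set by that choice. Genes that an alternative did not test were left out of it, and a missing adjusted p was counted as unchanged. Of 1400 counts of gene list members, 1351 stayed within 1.5 times; the other 49 were in 15 lists, 22 of them with a library left out and 11 with thinned counts. Of 700 list medians 69 moved by over 1.5 times, in 20 lists, 30 of them with a library left out. The moves that a single library makes stand beside most of the lists. The median of transcription factors ran from -0.14 without mutant microglia library 4 to -0.03 without mutant microglia library 1. For lysosomal genes it ran from -0.13 without mutant leptomeningeal library 1 to -0.05 without mutant microglia library 1. For cytokine receptors it was -0.29 without control leptomeningeal library 1 and -0.28 without mutant microglia library 4. For Fc receptors it was -0.01 without control leptomeningeal library 1 and up to 0.49 without mutant leptomeningeal library 1. Fits without a leptomeningeal library also tested more genes, so some lists gained a member. Without control leptomeningeal library 1, Fc receptor genes numbered 9 in place of 8 and p53 targets 25 in place of 24. TGF-beta genes numbered 34 in place of 33 and pattern receptors 24 in place of 23. The part of the added members in these moves was not tested. The 2 lower iron and heme genes became 1 without any 1 of 7 libraries. Thinning every library to 479077 UMIs left 8971 genes to test, and the calls were 4487 (2388 higher, 2099 lower), with 3365 (1871 and 1494) in mutant and 3032 (1704 and 1328) in control chimeras, and 2878 (1752 and 1126) between host and donor cells. The difference between chimeras called 8 genes with DESeq2 and 6 with the 12 host libraries fitted alone, and 0 to 3 when a host library was left out (3 without mutant leptomeningeal library 1). Replicate numbers were not shown to pair the samples. Deviations of same-numbered leptomeningeal and microglial libraries of one kind of chimera correlated at -0.07 to 0.03, and those of same-numbered mutant and control libraries at 0.05 for leptomeningeal cells and -0.23 to 0.13 for microglia, although Igkc and Mcpt4 went with the number in leptomeningeal cells. With the replicate block 6627 genes were called, 3686 higher and 2941 lower. Host leptomeningeal cells had 2 libraries per kind of chimera, with fewer UMIs than microglia, which limits genes under about 3 CPM.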
